A study of Mus musculus with 6 samples.

Results

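Ribosome assembly factors are the nucleolar proteins that make ribosomal RNA (rRNA) ready and join it with ribosomal proteins. They were taken here as a list of 50 named genes, of which 47 were measured among 19938 genes on the arrays. Npm3, Noc2l and Ppan had no probe set that named them alone and were not analysed here as genes. Each gene was read by 1 probe set, the one that named only its symbol and had the highest mean over the 6 arrays. The arrays held BDC2.5 CD4 T cells from the spleens of 7-week-old female NOD mice, a strain that becomes diabetic by autoimmunity. BDC2.5 is a T cell receptor that recognises a beta cell antigen. All mice had received BDC2.5 T cells, and the transferred cells were isolated by sorting for Thy1.1 and CD4 at 14 h after the injection that set the group. The PBS group received no antibody, the anti-DEC205-BDC group 100 ng of an antibody to DEC205 that carried the BDC antigen, and the anti-DCIR2-BDC group 100 ng of such an antibody to DCIR2. DEC205 and DCIR2 mark different dendritic cells, so the study asked what antigen shown by each kind of dendritic cell does to the same T cells. The labels give 2 biological duplicates in each group, numbered here as array 1 and array 2 of PBS, of DEC205 or of DCIR2. The number of mice behind an array is not given in the sources used here, so p-values measure the spread between these samples. No group received an antibody without antigen, so effects of antigen and of antibody cannot be told apart against PBS.

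As background, a ribosome begins in the nucleolus with one long rRNA precursor. Small nucleolar ribonucleoproteins (snoRNPs) modify chosen bases of the precursor, the small subunit processome folds and cleaves its first part, and separate sets of factors build the large subunit. T cells that meet antigen leave a resting state with little cytoplasm, and building new ribosomes is part of the growth that precedes their division. Values are log2 expression after the RMA algorithm, so 1 unit is a 2-fold difference. RMA equalises the arrays, so a value is relative to the other transcripts of the same sample, and fewer cells of a type and less RNA per cell cannot be told apart. Levels of different probe sets were not compared.

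After both antibodies nearly the whole list was higher than after PBS. The list was chosen with earlier results of these data known, so its direction is not independent evidence. After anti-DEC205-BDC 42 of 47 factors rose, 0 fell and 5 did not pass (limma adjusted p under 0.05), against 5.32% of all genes that rose and 3.53% that fell. After anti-DCIR2-BDC 45 of 47 rose, 0 fell and 2 did not pass, against 10.1% of all genes that rose and 7.82% that fell. The median log2 change of the factors was 1.29 after anti-DEC205-BDC and 1.76 after anti-DCIR2-BDC, or 2.45-fold and 3.38-fold. The medians over all genes were -0.03 and -0.05. Changes of at least 2-fold passed for 38 factors after anti-DEC205-BDC and 44 after anti-DCIR2-BDC, against 2.88% and 5.81% of all genes. Both comparisons share the PBS arrays, so they are not independent of each other. For 46 of the 47 factors all 4 antibody arrays lay above both PBS arrays, against 15.5% of all genes, the exception being Dimt1. Either pair of antibody arrays alone lay above both PBS arrays for 22.2% (anti-DEC205-BDC) and 23.4% (anti-DCIR2-BDC) of all genes. All 47 factors remained among the genes tested when the dimmest 50% of genes by mean level were left out. That mean took in the 4 antibody arrays, where the factors were higher, so passing this filter is not independent of the result. Of the genes then tested 12.4% rose after anti-DEC205-BDC and 21.3% after anti-DCIR2-BDC, and 43 and 45 factors rose.

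The sorted cells were checked against marker genes. The 11 T cell and CD4 T cell markers read 6.24 to 12.12 over the 6 arrays. The 38 markers of other cell types, from B cells to erythroid cells, read 3.28 to 7.57. These ranges come from different probe sets and give no share of other cells. After anti-DEC205-BDC 1 of 9 T cell markers fell (Trat1), against 3.53% of all genes. After anti-DCIR2-BDC 6 of 9 fell (Cd3d, Cd3e, Cd3g, Cd2, Cd28 and Trat1), against 7.82%. Cd5 did not fall after either antibody (log2 changes 0.20 and 0.04). Of the 2 CD4 T cell markers, Cd4, which was used in the sort, also fell after anti-DCIR2-BDC (log2 change -0.60, limma adjusted p = 0.0157). The summed level of the 9 T cell markers, taken back from the log2 scale, was 16984 to 17479 after PBS, 12448 to 13727 after anti-DEC205-BDC and 9643 to 9928 after anti-DCIR2-BDC. The brightest probe sets, Thy1 and Cd3e, weigh most in this sum. Thy1, also used in the sort, passed in neither comparison, and its duplicates read 12.09 and 11.47, 11.70 and 10.77, and 11.45 and 10.48 in the PBS, DEC205 and DCIR2 arrays. The part of the summed level in the result on the factors was not tested. Of the 4 natural killer cell markers Eomes rose after both antibodies (log2 changes 1.64 and 1.06), a gene that T cells can also express, and the summed level of the 4 was 90 to 127 after PBS, 232 to 241 after anti-DEC205-BDC and 159 to 188 after anti-DCIR2-BDC. The other 3, Ncr1, Klrb1c and Klra8, stayed between 3.55 and 4.55 in all arrays. Of the 38 markers of other cell types, none but Eomes passed in limma in either comparison with PBS.

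**Figure D1:**
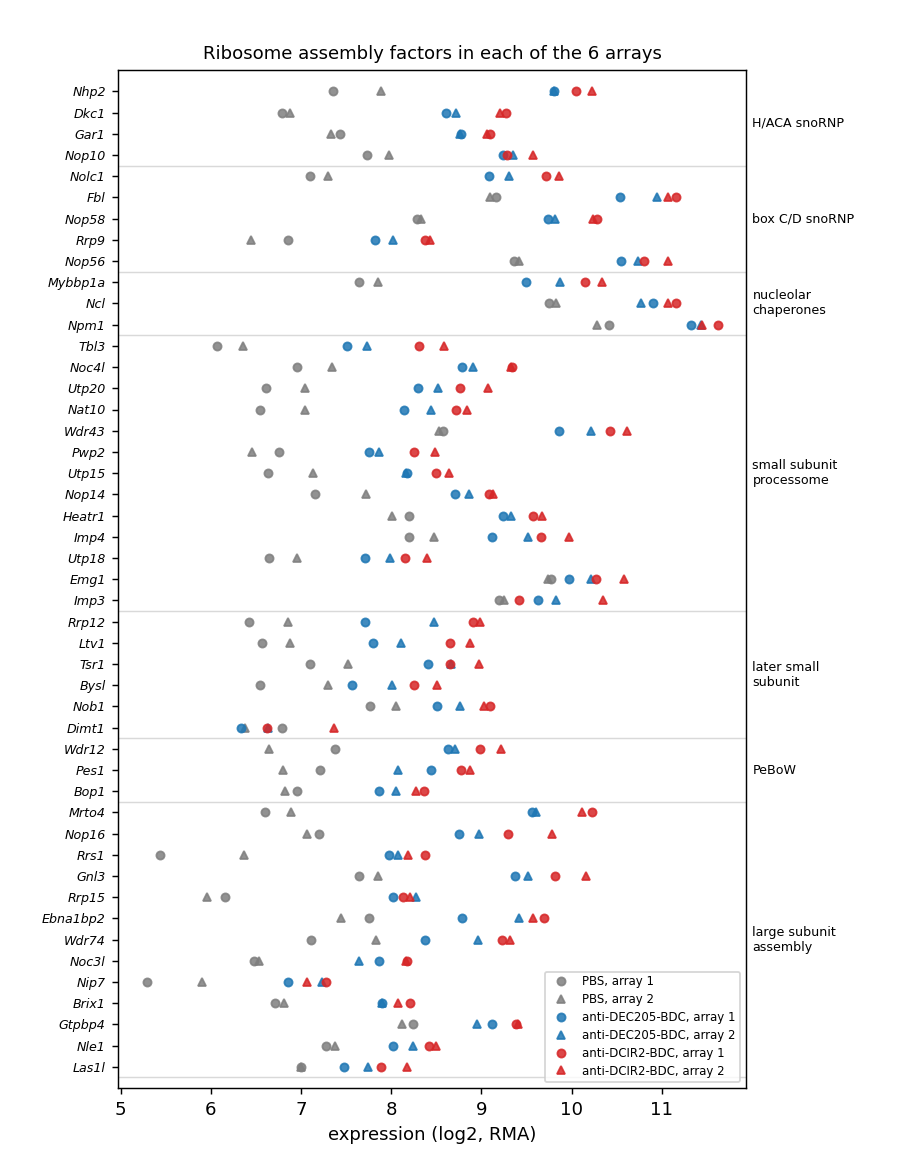
Expression of each of the 47 measured factors (log2, RMA) in each array, with 1 circle for array 1 and 1 triangle for array 2 of a group, sorted by role and by change after anti-DCIR2-BDC. PBS arrays (grey) lie to the left of all antibody arrays for every factor but Dimt1, and the DCIR2 arrays (red) lie to the right of both DEC205 arrays (blue) for 41 of the 47.

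The median level of the 47 factors was 7.11 and 7.30 in the PBS arrays, 8.61 and 8.76 in the DEC205 arrays and 9.09 and 9.13 in the DCIR2 arrays. The 3 groups did not overlap in this median. DEC205 array 2 was above DEC205 array 1 for 40 of 47 factors, against 55.9% of all genes. PBS array 2 was above PBS array 1 for 31 factors (49.5% of all genes), and DCIR2 array 2 above DCIR2 array 1 for 32 (48.2%), so array 2 leaned the same way in each group.

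Promoter sequences were looked at because the factors moved together. The E-box CACGTG, which reads the same on both strands, is the core site of the MYC family of transcription factors, which are known regulators of ribosome assembly genes. RefSeq promoter windows of GRCm38.p6, from 250 bases before to 50 bases after a gene's start, were used. Of the 47 factors 41 had one. Npm1, Bop1, Rrp12, Fbl, Rrs1 and Tbl3 had none and were not searched. At least 1 E-box lay in the window of 9 of these 41 factors (22.0%), against 9.5% of the 15614 tested genes with a window. For 7 factors (17.1%) it began within the 50 bases after the start, against 1.4% of genes. Of the other genes of the pathway with a window, 18 of 70 (25.7%) held it, and 8 (11.4%) held it after the start. The windows of the factors had a median GC content of 59.3% and 22 CpG pairs, against 57.5% and 15 for all genes tested. The part of base composition in these shares was not tested. The 9 sites are shown 5′ to 3′ on the strand of the gene, in stretches of up to 30 bases cut at the window's end, with the E-box in capitals.
Pes1 (chr11:3963965-3963994, plus strand): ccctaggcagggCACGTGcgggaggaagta
Wdr43 (chr17:71616220-71616249, plus strand): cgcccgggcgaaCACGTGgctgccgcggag
Nle1 (chr11:82908355-82908384, minus strand): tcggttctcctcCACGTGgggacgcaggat
Tsr1 (chr11:74898092-74898121, plus strand): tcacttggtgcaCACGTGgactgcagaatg
Ltv1 (chr10:13193092-13193121, minus strand): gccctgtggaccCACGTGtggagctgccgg
Utp20 (chr10:88826765-88826789, minus strand): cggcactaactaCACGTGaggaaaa
Mybbp1a (chr11:72441355-72441376, plus strand): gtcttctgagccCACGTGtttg
Utp18 (chr11:93885769-93885798, minus strand): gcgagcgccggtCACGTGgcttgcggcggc
Imp4 (chr1:34439696-34439725, plus strand): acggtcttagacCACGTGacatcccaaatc

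In Pes1, Wdr43, Nle1, Tsr1, Ltv1, Utp20 and Mybbp1a the E-box begins 2, 17, 23, 24, 28, 37 and 40 bases after the start site of the promoter table. In Utp18 and Imp4 it begins 20 and 121 bases before that site. For Wdr43 and Nle1 the table's start site lies 37 and 51 bases inside the gene's RefSeq span, and counted from the edge of the span the E-box begins 54 and 74 bases in. For the other 7 genes the start site is the edge of the span. The 9 factors with the motif had a median log2 change of 1.23 after anti-DEC205-BDC and 1.81 after anti-DCIR2-BDC. The 32 factors without it in the window had medians of 1.32 and 1.69. The ranges after anti-DCIR2-BDC overlapped, from 1.13 to 2.50 with the motif and from 0.40 to 3.43 without it. The factor with the largest change, Mrto4, was among the 32. A match is a description of the letters in this window only.

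Proteins of the H/ACA snoRNPs, the particles that turn uridines of rRNA into pseudouridines, all rose (4 of 4 after each antibody). Their median log2 changes were 1.63 after anti-DEC205-BDC and 2.05 after anti-DCIR2-BDC. The all-gene shares that rose, 5.32% after anti-DEC205-BDC and 10.1% after anti-DCIR2-BDC, stand beside the counts of this and each later role group. Nhp2, a core protein that binds the guide RNA, read 7.35 and 7.89 in the PBS arrays, 9.80 and 9.80 in the DEC205 arrays and 10.05 and 10.23 in the DCIR2 arrays. No antibody array came near a PBS array for this gene. Nhp2 rose 4.54-fold after anti-DEC205-BDC (limma adjusted p = 0.000512) and 5.75-fold after anti-DCIR2-BDC (adjusted p = 4.81e-05). Dkc1, the pseudouridine synthase of the particle, read 6.79 and 6.88 after PBS, 8.61 and 8.72 after anti-DEC205-BDC and 9.27 and 9.21 after anti-DCIR2-BDC. Duplicates of Dkc1 lay close to each other, and the 3 groups were apart. Its rises were 3.55-fold (adjusted p = 0.000549) and 5.28-fold (3.93e-05). Gar1 and Nop10, the remaining core proteins, had the smallest changes of the 4. Gar1 read 7.43 and 7.33, then 8.77 and 8.76, then 9.10 and 9.06 in the PBS, DEC205 and DCIR2 arrays, which are rises of 1.38 (adjusted p = 0.00144) and 1.70 (0.000133) on the log2 scale. Nop10 read 7.73 and 7.98, then 9.24 and 9.35, then 9.28 and 9.57, and here the DEC205 and DCIR2 arrays overlapped. Its log2 changes were 1.44 (adjusted p = 0.00157) and 1.57 (0.000273).

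Box C/D snoRNPs add methyl groups to the ribose of rRNA, and their proteins and assembly factors rose as well (5 of 5 after each antibody, median log2 changes 1.47 and 1.95). Nolc1, a nucleolar phosphoprotein that binds snoRNPs on their way to the nucleolus, changed most. It read 7.10 and 7.30 after PBS, 9.08 and 9.31 after anti-DEC205-BDC and 9.72 and 9.86 after anti-DCIR2-BDC. These are rises of 3.98-fold (limma adjusted p = 0.000512) and 6.01-fold (3.93e-05). Fbl, the methyltransferase fibrillarin, read 9.16 and 9.09, then 10.54 and 10.95, then 11.16 and 11.07, with a wider gap between the DEC205 arrays than within the other groups. Its rises were 3.07-fold (adjusted p = 0.000549) and 3.97-fold (4.81e-05). Nop56 and Nop58 are paralogous scaffold proteins of the particle. Nop56, the smallest change of this group, read 9.36 and 9.42, then 10.55 and 10.74, then 10.80 and 11.07, and rose by 1.25 (adjusted p = 0.000989) and 1.54 (9.39e-05) in log2. Nop58 read 8.29 and 8.33, then 9.74 and 9.82, then 10.28 and 10.24, which are rises of 1.47 (0.000719) and 1.95 (4.73e-05). Rrp9, a protein of the U3 particle that helps cleave the precursor, had log2 changes of 1.27 (adjusted p = 0.00445) and 1.76 (0.000265).

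Some snoRNAs are cut from introns of these genes, and 19 snoRNA genes lay inside the RefSeq spans of 7 factors, of which 4 were measured. Snora75, inside the span of Ncl, rose after anti-DCIR2-BDC (log2 change 1.14, adjusted p = 0.034) but not past the threshold after anti-DEC205-BDC (0.82, adjusted p = 0.178). Snord82, also inside Ncl, Snord57 inside Nop56 and Snord53 inside Wdr43 passed in neither comparison. Their changes were 0.29, -0.28 and 0.65 after anti-DEC205-BDC and 0.24, 0.44 and 0.64 after anti-DCIR2-BDC.

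Among nucleolar chaperones and regulators of rRNA genes 3 of 3 measured factors rose after each antibody. Mybbp1a, a nucleolar protein that acts on rRNA synthesis and processing and that holds an E-box just after its start, changed most. It read 7.64 and 7.85 after PBS, 9.49 and 9.87 after anti-DEC205-BDC and 10.15 and 10.34 after anti-DCIR2-BDC. The rises were 3.82-fold (limma adjusted p = 0.000549) and 5.66-fold (3.93e-05). Ncl (nucleolin) and Npm1 (nucleophosmin), abundant proteins of the nucleolus, rose by a little over 2-fold. Ncl read 9.75 and 9.83, then 10.90 and 10.77, then 11.16 and 11.07, or 2.06-fold (adjusted p = 0.00108) and 2.51-fold (8.95e-05) above PBS. Npm1 read 10.41 and 10.28, then 11.32 and 11.43, then 11.62 and 11.45, or 2.04-fold (adjusted p = 0.000904) and 2.29-fold (0.000111). The duplicates of both genes lay close together, and no antibody array overlapped PBS.

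The small subunit processome, the large particle that assembles on the first part of the precursor, was measured with 13 factors. After anti-DEC205-BDC 11 of the 13 rose and after anti-DCIR2-BDC 12, with median log2 changes of 1.29 and 1.69. Tbl3, a subunit of its UTP-B complex, changed most after anti-DCIR2-BDC. It read 6.07 and 6.36 after PBS, 7.51 and 7.73 after anti-DEC205-BDC and 8.31 and 8.59 after anti-DCIR2-BDC, with each group apart from the next. Its rises were 2.64-fold (limma adjusted p = 0.00282) and 4.70-fold (8.03e-05). Noc4l, a partner of Nop14 in the processome, changed most after anti-DEC205-BDC. It read 6.96 and 7.34, then 8.78 and 8.91, then 9.34 and 9.33, or 3.24-fold (adjusted p = 0.000904) and 4.56-fold (6.63e-05) above PBS. Nop14 itself had log2 changes of 1.35 and 1.67. Of the other UTP-B subunits, Pwp2 changed by 1.20 and 1.76 and Utp18 by 1.05 and 1.47. In the UTP-A complex, which binds the precursor first, Wdr43 changed by 1.49 and 1.97, Utp15 by 1.29 and 1.69 and Heatr1 by 1.18 and 1.52. Wdr43 and Utp18 are among the factors with an E-box shown above, as is Utp20, a very large scaffold protein that changed by 1.59 and 2.09. Nat10, which acetylates rRNA, changed by 1.51 and 1.99. For all of these the DEC205 and the DCIR2 arrays both lay above the PBS arrays, and all passed in both comparisons.

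Emg1 and Imp3 had the smallest changes of the processome after both antibodies. Emg1, a methyltransferase of the small subunit rRNA, read 9.77 and 9.74 after PBS, 9.97 and 10.22 after anti-DEC205-BDC and 10.27 and 10.58 after anti-DCIR2-BDC. Its log2 change of 0.34 after anti-DEC205-BDC did not pass (limma adjusted p = 0.263), and it rose by 0.67 after anti-DCIR2-BDC (adjusted p = 0.0138). Imp3 and Imp4 are U3 proteins that help the snoRNA bind the precursor. Imp3 read 9.20 and 9.25, then 9.63 and 9.83, then 9.42 and 10.35, so the DCIR2 duplicates lay on both sides of the DEC205 arrays. It passed in neither comparison (log2 changes 0.50 and 0.66, adjusted p = 0.31 and 0.116). The value of Imp3 after anti-DCIR2-BDC rests on which DCIR2 array is used: its log2 change was 1.12 without DCIR2 array 1 (adjusted p = 0.008) and 0.19 without DCIR2 array 2 (adjusted p = 0.671), the lowest and highest p over the alternatives. Leaving out an array leaves 1 in its group, here and below, and that array is assumed to vary like those of the other groups. Imp4 rose by 0.99 (adjusted p = 0.0131) and 1.48 (0.000565).

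Factors that act later on the small subunit, as it matures and leaves the nucleus, were measured with 6 genes. After anti-DEC205-BDC 4 of the 6 rose and after anti-DCIR2-BDC 5, with medians of 1.04 and 1.48. Rrp12, an export factor, read 6.42 and 6.86 after PBS, 7.71 and 8.47 after anti-DEC205-BDC and 8.91 and 8.99 after anti-DCIR2-BDC. The DEC205 duplicates were far apart, and both lay between the other groups. It rose 2.74-fold (limma adjusted p = 0.0076) and 4.97-fold (0.000223). Ltv1, which leaves the precursor particle late, read 6.57 and 6.88, then 7.80 and 8.11, then 8.65 and 8.87, or 2.34-fold (adjusted p = 0.00554) and 4.09-fold (0.000133) above PBS. Tsr1, a GTPase-like factor, rose by 1.22 (0.0068) and 1.50 (0.000826) in log2. Both Ltv1 and Tsr1 carry the E-box after the start. Nob1, the nuclease that trims the end of the small subunit rRNA, rose by 0.72 (adjusted p = 0.0401) and 1.15 (0.00181).

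Bysl, an early to late small subunit factor, read 6.55 and 7.30 after PBS, 7.56 and 8.01 after anti-DEC205-BDC and 8.25 and 8.51 after anti-DCIR2-BDC, with a wide gap between the PBS arrays. Its log2 change of 0.86 after anti-DEC205-BDC did not pass (limma adjusted p = 0.0833, range 0.0206 to 0.416 over the alternatives), and it rose by 1.46 after anti-DCIR2-BDC (0.00351). The change of Bysl after anti-DEC205-BDC was 1.23 without PBS array 2 (adjusted p = 0.0261) and 0.48 without PBS array 1 (adjusted p = 0.416), with a PBS group of 1 array in each case. Dimt1, the dimethyltransferase of the small subunit rRNA, was the 1 factor whose antibody arrays overlapped the PBS arrays. It read 6.79 and 6.38, then 6.33 and 6.63, then 6.62 and 7.36, and its log2 changes of -0.11 (95% interval -0.69 to 0.47, adjusted p = 0.885) and 0.40 (-0.18 to 0.98, adjusted p = 0.375) did not pass. Dimt1 thus had intervals that reach past 0 on both sides, and the upper bounds lie below the median changes of the factors.

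In the PeBoW complex, which is needed to process the precursor of the large subunit rRNA, 3 of 3 factors rose after each antibody. Wdr12 read 7.38 and 6.65 after PBS, 8.63 and 8.71 after anti-DEC205-BDC and 8.98 and 9.22 after anti-DCIR2-BDC. The PBS duplicates were further apart than either antibody pair. Wdr12 rose 3.16-fold (limma adjusted p = 0.00279) and 4.25-fold (0.00025). Pes1, which holds an E-box at its start, read 7.21 and 6.80, then 8.44 and 8.07, then 8.77 and 8.87, or 2.37-fold (0.0063) and 3.51-fold (0.000286) above PBS. Bop1, the smallest change of the complex, read 6.95 and 6.82, then 7.87 and 8.05, then 8.36 and 8.28, or 2.10-fold (0.00636) and 2.70-fold (0.000458). The order of the groups was the same in the 3 subunits.

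Large subunit assembly was measured with 13 further factors, of which 12 rose after anti-DEC205-BDC and 13 after anti-DCIR2-BDC (median log2 changes 1.45 and 1.80). Mrto4, which holds the place of the ribosomal stalk on the precursor particle, had the largest change of the 47 after both antibodies. It read 6.60 and 6.89 after PBS, 9.56 and 9.60 after anti-DEC205-BDC and 10.23 and 10.12 after anti-DCIR2-BDC. The rises were 7.16-fold (standard error 0.18 in log2, limma adjusted p = 0.000193) and 10.8-fold (standard error 0.18, adjusted p = 1.97e-05). A separate probe set of Mrto4 read 6.10 and 6.46, then 9.03 and 9.20, then 9.62 and 9.73, which are differences of 2.83 and 3.40 beside 2.84 and 3.43 for the one used. The 2 probe sets thus differed little for Mrto4. Fbl and Wdr12 also had a separate probe set each, with differences from PBS of 1.24 and 1.67 for Fbl, and of 1.92 and 2.40 for Wdr12, beside 1.62 and 1.99, and 1.66 and 2.09, for the ones used.

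Among the 13 large subunit factors Rrs1 and Rrp15 came next after anti-DEC205-BDC, and Nop16 and Rrs1 after anti-DCIR2-BDC. Rrs1, which takes part in early large subunit assembly, read 5.44 and 6.37 after PBS, 7.97 and 8.07 after anti-DEC205-BDC and 8.38 and 8.19 after anti-DCIR2-BDC. Its PBS arrays were nearly 1 log2 unit apart, so its rises of 2.12 (limma adjusted p = 0.00166) and 2.38 (0.00025) have standard errors of 0.28. Rrp15 read 6.16 and 5.96, then 8.02 and 8.27, then 8.13 and 8.21, and the DEC205 and DCIR2 arrays overlapped. It rose 4.22-fold (0.000512) and 4.31-fold (7.96e-05). Nop16 read 7.20 and 7.07, then 8.75 and 8.97, then 9.29 and 9.78, or 3.30-fold (0.00124) and 5.27-fold (6.55e-05) above PBS. Gnl3, the nucleolar GTPase nucleostemin of dividing cells, rose by 1.70 (0.000781) and 2.25 (5.46e-05) in log2. Ebna1bp2 rose by 1.50 and 2.03, Wdr74 by 1.20 and 1.80, Noc3l by 1.25 and 1.66 and Brix1 by 1.14 and 1.38.

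Nip7, a factor that binds the large subunit precursor, read 5.29 and 5.90 after PBS, 6.86 and 7.23 after anti-DEC205-BDC and 7.28 and 7.07 after anti-DCIR2-BDC. It rose by 1.45 (limma adjusted p = 0.00462) and 1.58 (0.00103), and its DEC205 and DCIR2 arrays overlapped. Gtpbp4, a GTPase that acts in the nucleolus, and Nle1, which carries an E-box after its start, had small rises. Gtpbp4 rose by 0.85 (0.0119) and 1.22 (0.000684), and Nle1 by 0.80 (0.0237) and 1.13 (0.00182). Las1l, which takes part in removing a spacer from the precursor, changed least in this group. It read 7.00 and 7.00, then 7.48 and 7.74, then 7.89 and 8.18, and all 4 antibody arrays lay above PBS. Its log2 change of 0.61 after anti-DEC205-BDC did not pass (adjusted p = 0.0955), and it rose by 1.04 after anti-DCIR2-BDC (0.00431).

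**Figure D2:**
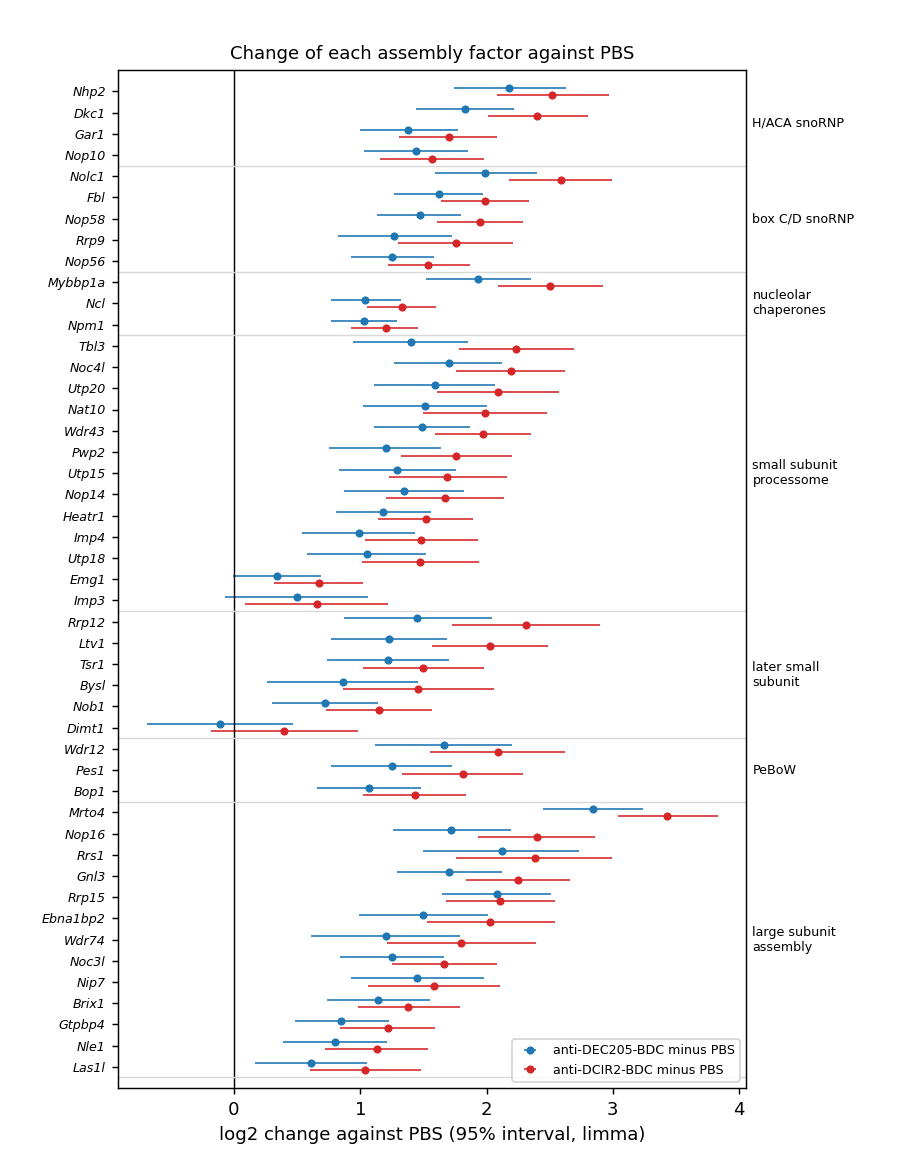
Log2 change of each of the 47 factors against PBS with its 95% interval from limma, for anti-DEC205-BDC (blue) and anti-DCIR2-BDC (red), sorted by role. Mrto4 lies furthest to the right at 2.84 and 3.43. Of the anti-DEC205-BDC intervals only those of Emg1, Imp3 and Dimt1 include 0, and of the anti-DCIR2-BDC intervals only that of Dimt1.

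Of the 42 factors called after anti-DEC205-BDC, 30 passed in every one of the 16 alternatives, and of the 45 called after anti-DCIR2-BDC, 43 did. After anti-DEC205-BDC Nob1 lost its call whichever of the 6 arrays was left out (adjusted p = 0.055 to 0.22), and by quantile normalization (0.0505). Nle1 lost it without PBS array 1 (0.108), PBS array 2 (0.062), DEC205 array 1 (0.0524) or DEC205 array 2 (0.143). Utp18, Imp4 and Wdr74 lost it without PBS array 1 (0.0768, 0.0763 and 0.115) or DEC205 array 2 (0.0796, 0.0984 and 0.128), and Gtpbp4 without PBS array 2 (0.0559) or DEC205 array 1 (0.0782). Ltv1, Tsr1, Rrp12, Pes1, Nip7 and Ebna1bp2 lost it only when every probe set was tested (0.0506 to 0.0767). In that setting Nob1, Nle1, Utp18, Imp4, Wdr74 and Gtpbp4 lost it too (limma adjusted p = 0.0537 to 0.122). Nob1 also lost it when only the 4 arrays compared were fitted (limma adjusted p = 0.0776). Testing every probe set also took the call of Emg1 after anti-DCIR2-BDC (limma adjusted p = 0.0553). After anti-DCIR2-BDC Emg1 lost its call without PBS array 1 (0.0501), PBS array 2 (0.0594) or DCIR2 array 2 (0.125), and Las1l without DCIR2 array 2 (0.0558).

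The antibodies were then compared with each other. The groups differ both in the dendritic cell addressed and in the antibody itself, and these cannot be told apart. All 47 factors had a higher mean after anti-DCIR2-BDC than after anti-DEC205-BDC, against 47.9% of all genes. None of them (0 of 47) passed in limma, where 4 of 19938 genes did (0.0201%). At an unadjusted p under 0.05, 24 factors were higher and 0 lower, against 5.58% of all genes that were higher. Both DCIR2 arrays lay above both DEC205 arrays for 41 factors, against 19.3% of all genes. The factors moved together and were read on the same few arrays, so these counts are not counts of independent observations. The median difference was 0.43 in log2, or 1.34-fold, and that over all genes was -0.01. A single gene's difference was known to about 0.388 to either side (the median half-width of the 95% interval over all genes). In simulated data 54% of 2-fold differences were recovered in this comparison. Those data held many planted changes, 4-fold ones among them, while the factors differed by a median of only 1.34-fold. The 54% therefore does not give the share of differences of this size that would pass.

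Rrp12 had the largest difference between the antibodies at 0.86 (95% interval 0.27 to 1.44, limma adjusted p = 0.314). Tbl3 followed with 0.83 (0.38 to 1.29, adjusted p = 0.225) and Ltv1 with 0.80 (0.34 to 1.26, adjusted p = 0.238). These factors act on the small subunit, and for each the DCIR2 arrays lay above the DEC205 arrays. Nop16 differed by 0.68 (0.21 to 1.14, adjusted p = 0.319), and Nolc1, Bysl and Wdr74 by 0.60 each (adjusted p = 0.312, 0.487 and 0.479). Wdr74 read 8.38 and 8.96 in the DEC205 arrays and 9.23 and 9.32 in the DCIR2 arrays, after 7.11 and 7.83 in PBS. The order of these differences depends on single arrays: without DEC205 array 1 Rrp12 differed by 0.48, less than Tbl3 at 0.72, and Bysl and Wdr74 by 0.38 and 0.31. Without DEC205 array 2 Rrp12 differed by 1.24 and Wdr74 by 0.90, and without DCIR2 array 2 Nop16 differed by 0.43. Mrto4, the largest riser against PBS, differed by 0.59 (0.20 to 0.99, adjusted p = 0.305). The smallest differences were those of Rrp15 at 0.03 (-0.40 to 0.46), Nop10 and Nip7 at 0.13 each, and Imp3 and Npm1 at 0.16 each. Arrays of the antibodies overlapped for Nop10, Imp3, Tsr1, Dimt1, Rrp15 and Nip7. By role, the median difference ran from 0.28 for nucleolar chaperones to 0.56 for later small subunit factors.

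**Figure D3:**
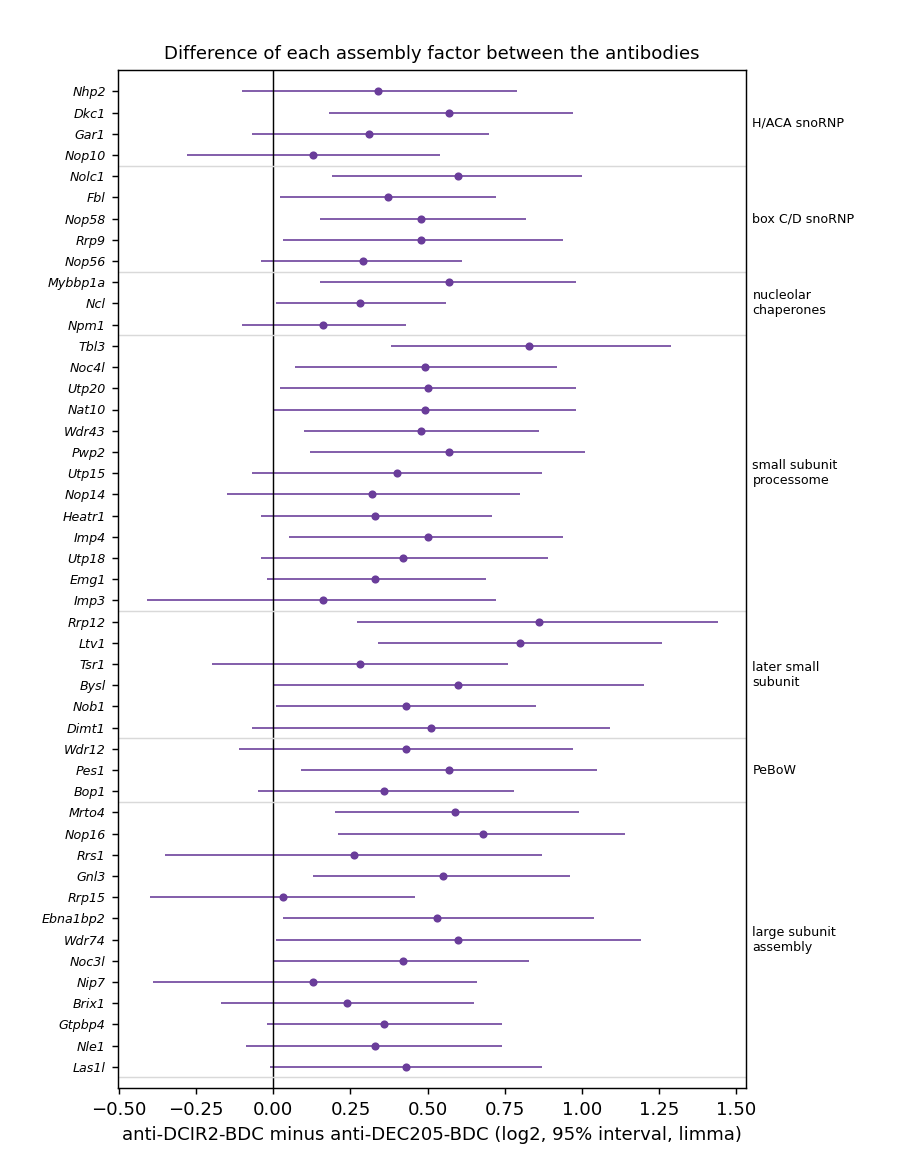
Log2 difference of each of the 47 factors between anti-DCIR2-BDC and anti-DEC205-BDC with its 95% interval from limma. All points lie to the right of 0, from 0.03 for Rrp15 to 0.86 for Rrp12, and none passed after adjustment over all genes.

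Other genes of the same pathway were counted from a list of 91, of which 88 were measured. After anti-DEC205-BDC 53 of 88 rose and 0 fell, against 5.32% of all genes that rose. After anti-DCIR2-BDC 74 rose and 0 fell, against 10.1% of all genes that rose. The median log2 changes were 0.85 and 1.20. The same all-gene shares stand beside the counts of the sub-lists below. Between the antibodies 0 of the 88 passed in limma, and 85 had a higher mean after anti-DCIR2-BDC, against 47.9% of all genes. Their median difference was 0.42, near the 0.43 of the 47 factors. Other small subunit factors rose for 24 of 36 after anti-DEC205-BDC and 29 of 36 after anti-DCIR2-BDC. Among them Pno1, a partner of Nob1, read 6.29 and 6.12 after PBS, 8.10 and 8.40 after anti-DEC205-BDC and 9.01 and 9.42 after anti-DCIR2-BDC, which are rises of 2.04 (limma adjusted p = 0.000734) and 3.01 (3.93e-05). Utp4, a UTP-A subunit, rose by 1.59 and 2.27, while Rrp36 (-0.10 and 0.26) and Utp23 (-0.13 and 0.24) passed in neither comparison. Other large subunit factors rose for 22 of 35 and 31 of 35. Nop2, a methyltransferase of the large subunit rRNA, rose by 1.75 and 2.49 and Sdad1 by 1.66 and 2.31, while Nop53 (-0.31 and 0.04) and Zfp622 (-0.25 and -0.22) did not pass. Exosome subunits, which trim and degrade rRNA precursors, rose for 4 of 10 and 9 of 10. Of these the nuclease Dis3 rose by 1.74 and 2.09 and Exosc2 by 1.45 and 1.38, Exosc5 by 0.74 and 0.84, and Exosc8 did not pass (0.39 and 0.42). Transcription factors of rRNA genes rose for 3 of 7 and 5 of 7, with Rrn3 at 0.85 and 1.20, Taf1a at 1.07 and 1.52 (the former not past the threshold, adjusted p = 0.0616) and Taf1b (-0.12 and 0.03) and Taf1c (0.23 and 0.10) passing in neither.

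**Figure D4:**
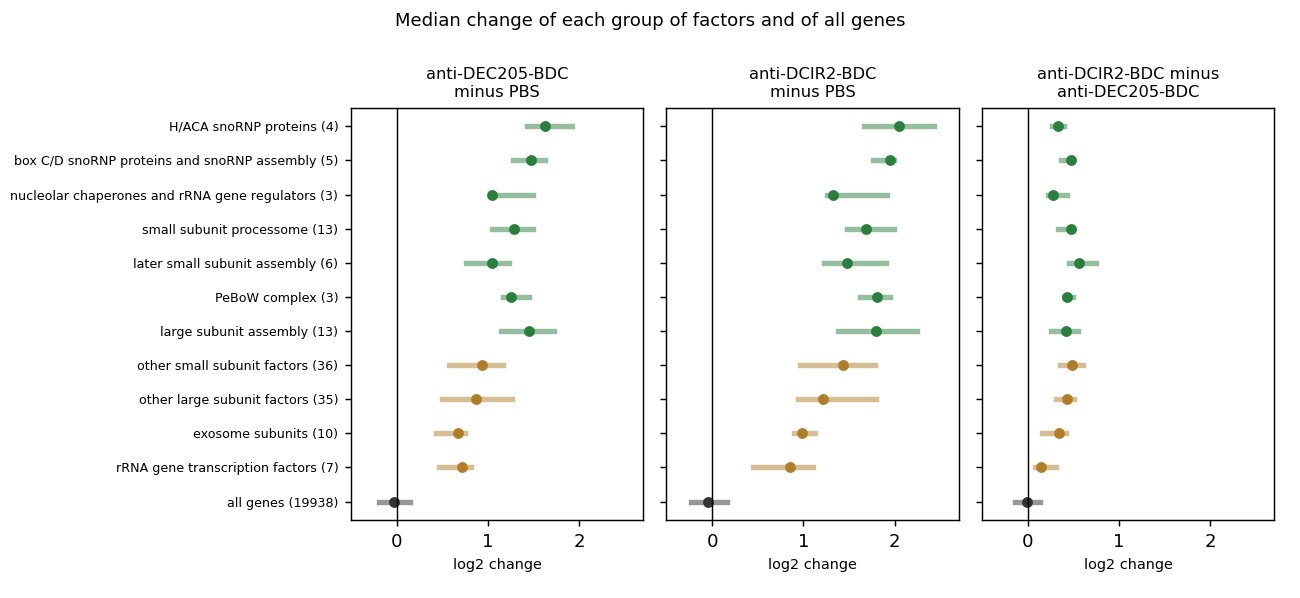
Median log2 change (point) and the range from the 25th to the 75th percentile (bar) for each role group of the factors (green), for the other genes of the pathway (brown) and for all genes (black), with the number of genes in brackets, in the 3 comparisons. Against PBS the groups of factors have medians from 1.04 to 2.05 and all genes lie near 0, and between the antibodies the groups of factors lie from 0.28 to 0.56.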

How the data were processed

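The authors deposited 1 table of log2 values per probe set. Per the labels' protocols, nanogram amounts of RNA were amplified before labelling, so a value rests on amplified cDNA. The design text of the series and the submitters' processing notes name Partek and RMA, without a version or settings that could be given here. Of 35556 probe sets 21789 named 1 gene, 1621 several and 12146 were unnamed here, by the platform annotation. Where more than 1 probe set named a gene (999 genes), the highest mean decided which was kept, and 19938 genes remained. All were tested with limma 3.58.1 in R 4.3.3. The fit took all 6 arrays, estimated a mean for each group and used a variance trend. P-values were two-sided and adjusted by Benjamini-Hochberg over all genes, with a threshold of 0.05. Only the rows of interest are reported. The factors, their role groups and the other lists were chosen with earlier results of these data known, so a list's direction is not independent evidence. Values by array are given for the largest and smallest change in each role group, for factors that missed the threshold against PBS, for the 3 highest and 3 lowest mean levels and for the 5 largest differences between antibodies with ties, and for some further factors. Of each pathway sub-list the 2 largest and 2 smallest changes after anti-DCIR2-BDC are named. Replicate numbers were not a block, since no label ties them to a mouse or day. The fit was tested on simulated data with known changes. Of 2-fold changes it recovered 50% (anti-DEC205-BDC against PBS), 56% (anti-DCIR2-BDC against PBS) and 54% (between the antibodies). Of 4-fold changes it recovered 88%, 95% and 91%, with 2, 7 and 5 false calls. Precision is limited by how few arrays there are. The 16 alternatives left out each array, added the replicate block, recentred or requantiled the arrays, dropped dim genes, averaged or tested all probe sets, or changed the variance model or the arrays fitted. RefSeq tables of GRCm38.p6 gave positions and promoters. Protein sequences were not used here.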

Additional observations from a re-analysis of the deposited data

Results flagged for a closer look

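Probe sets that name several genes were left out of the comparisons, and 4 of them name a listed factor and lay above PBS in all 4 antibody arrays. The probe set annotated to both B130055M24Rik and Ppan, the latter a large subunit assembly factor, read 7.67 and 7.61 after PBS, 8.91 and 9.15 after anti-DEC205-BDC and 9.55 and 9.73 after anti-DCIR2-BDC. Its mean was 1.39 above PBS after anti-DEC205-BDC and 2.0 above PBS after anti-DCIR2-BDC, on the log2 scale. The probe sets annotated to both Gm15484 and Npm1 were 1.09, 0.88 and 0.85 above PBS after anti-DCIR2-BDC and 0.86, 0.69 and 0.69 above it after anti-DEC205-BDC. None of these can be assigned to 1 gene.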

How the results depend on the processing

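Counts of factors called kept within 1.5 times in all 16 alternatives against PBS: 30 to 43 after anti-DEC205-BDC and 43 to 46 after anti-DCIR2-BDC, and 0 between the antibodies in each of them. Leaving out 1 array gave 37 to 41, 43 to 46 and 0 calls. The lowest count, 30, came from testing every probe set, which adjusts over more tests. Apart from those leaving out 1 array, the other alternatives had 4.34% to 12.4% of all genes rising after anti-DEC205-BDC. After anti-DCIR2-BDC this share was 9.31% to 21.3%. The median change stayed at 1.26 to 1.39 and 1.71 to 1.84 without 1 array, and the median difference between the antibodies at 0.34 to 0.55, the latter being the value without DEC205 array 2. Quantile normalization gave medians of 1.62 after anti-DCIR2-BDC and 0.32 between the antibodies; the cause was not tested. Signs turned for Dimt1 after anti-DEC205-BDC (-0.31 to 0.10 without 1 array) and between the antibodies for Rrp15 (-0.10 to 0.15), Nip7 (-0.05 to 0.32), Nop10 (-0.01 to 0.27) and Imp3 (-0.31 to 0.62) without 1 array, and for Nop10 (-0.01) and Rrp15 (-0.07) with quantile normalization, none of them called. With the replicate number as a block 43, 45 and 0 factors were called. Deviations of equal numbers correlated at 0.145, 0.131 and 0.0714 across genes, and the numbers were not taken to pair the samples.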
